A study of Danio rerio with 2 samples.

Results

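The 7 stathmin genes (stmn1a, stmn1b, stmn2a, stmn2b, stmn3, stmn4 and stmn4l) and gap43 were followed from dividing cells to mature neurons in the brain of zebrafish larvae. They were chosen by symbol, and unique molecular identifiers (UMIs) of gene identifiers that share a symbol were summed. The 8 genes are 8 of the 31323 symbols in the count tables (32057 gene identifiers), and all 8 had UMIs in both libraries.

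Stathmins bind pairs of tubulin subunits and favour the shortening of microtubules, and phosphorylation switches this activity off. In mammals stathmin 1 is a cytosolic protein of dividing cells and of young neurons, whereas the stathmin 2, 3 and 4 proteins carry a lipid-modified tail that anchors them to membranes of the Golgi and the growth cone. GAP-43 is a membrane-bound growth cone protein and a substrate of protein kinase C, and it is a common marker of axon growth. Zebrafish keep duplicated copies of some of these genes, named with a and b.

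Single cells came from dissociated whole brains of larvae at 3 days post fertilization, and each genotype was represented by 1 droplet library. The sibling library is described as wt, and the other as rb1 mutant, homozygous for the smu2 allele of rb1. rb1 encodes the retinoblastoma protein, which restrains E2F factors and entry into S phase. The number of brains pooled into a library is not given in the sources used here. With 1 library per genotype there is no replicate, so no test was made. Every interval in square brackets is an exact 95% interval that covers counting error only, and genotype cannot be told apart from any other difference between the libraries.

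After the limits on genes, UMIs and mitochondrial share and the removal of likely doublets, 7539 of 8557 sibling barcodes (28869101 UMIs, median 3313 per cell) and 7873 of 8799 rb1 barcodes (31887164 UMIs, median 3598) were retained. The libraries shared 15 retained barcode sequences. The libraries held 173 (sibling) and 172 (rb1) UMIs of rb1 itself, a ratio of CPM (counts per 1000000 UMIs) of 0.9 [0.725, 1.12], so the level of the mutated gene's 3′ tags does not separate the genotypes. The labels call the cells neurons of whole brain. elavl3, an RNA-binding protein gene of neurons, had a UMI in 43.8% of sibling and 49.1% of rb1 cells, and marker genes also set apart retinal, connective tissue, epidermal, muscle and blood cells. Cells were placed in 19 classes by how many marker genes of each list had a UMI, and 25.8% and 22.6% of cells were left unassigned. These met no rule, or met the rules of more than 1 non-neural or more than 1 retinal or cranial class. Neurons and neurogenic precursors with fewer than 1000 UMIs were also left unassigned. Class names describe marker genes only and none of the 8 genes was a marker. Neurons were ordered by how many of 17 mature neuron genes, not all of them synaptic, had a UMI after each cell was thinned to 1000 UMIs: newborn neurons had at most 1, mature neurons at least 4, and intermediate neurons a number between these. Mature neurons were 19.9% of sibling and 15.2% of rb1 cells, and cells with both elavl3 and at least 3 mitotic genes (elavl3-positive mitotic cells) were 1.46% and 5.86%.

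**Figure D1:**
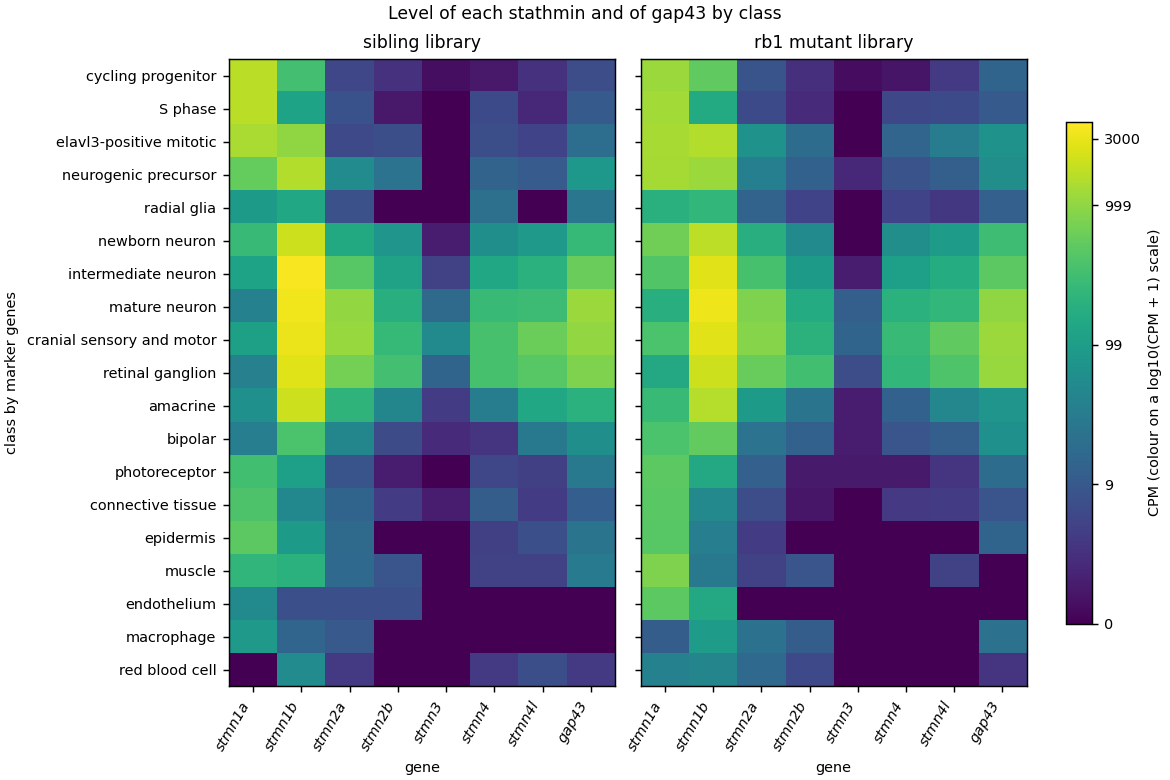
Level of each gene (columns) in each marker-gated class (rows) in the sibling (left) and rb1 mutant (right) library; colour shows CPM on a log10(CPM + 1) scale. stmn1a is brightest in the dividing classes at the top, and the other 7 genes in the neuron classes.

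stmn1a, the stathmin 1 copy of dividing cells, stood highest where cells divided. In the sibling library its level was 1676 CPM in cycling progenitors (at least 3 mitotic genes and no elavl3), 1673 CPM in S phase cells and 1399 CPM in elavl3-positive mitotic cells. It was 556 CPM in neurogenic precursors, 278 CPM in newborn, 120 CPM in intermediate and 37.7 CPM in mature neurons. The 2 highest classes had overlapping intervals, and each step from elavl3-positive mitotic cells through the neuron stages was larger than counting error. In mature neurons stmn1a was 44.4-fold lower than in cycling progenitors in the sibling library and 6.37-fold lower in the rb1 library, whose highest classes were elavl3-positive mitotic cells (1343 CPM) and neurogenic precursors (1294 CPM) with overlapping intervals. A UMI of stmn1a was found in 89.1% of sibling and 75.8% of rb1 cycling progenitors, at median depths of 7038 and 5047 UMIs, and in 62.8% and 45.8% once every cell was thinned to 1000 UMIs. stmn1a was not limited to neural cells, with 396 CPM in connective tissue and 498 CPM in epidermis of the sibling library. It was at 323 CPM in photoreceptor-like cells, a retinal class. The division marker mki67 was at 111, 98.0 and 10.6 CPM in those same classes.

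stmn1b, the other stathmin 1 copy, was already present in cycling progenitors and elavl3-positive mitotic cells but was highest in neurons. Its sibling levels were 331 CPM in cycling progenitors, 120 CPM in S phase cells, 1018 CPM in elavl3-positive mitotic cells and 1525 CPM in neurogenic precursors. They were 2151 CPM in newborn, 3615 CPM in intermediate and 3311 CPM in mature neurons, so the peak fell before the most mature stage and its interval did not touch that of mature neurons. In the rb1 library the order of the last 2 stages was the opposite, with 2725 CPM in intermediate and 3219 CPM in mature neurons. The copies of stathmin 1 thus ran in opposite directions, since stmn1b was 10.0-fold [9.35, 10.7] higher in mature neurons than in cycling progenitors in the sibling and 6.18-fold [5.87, 6.51] higher in the rb1 library. These classes differ in depth (medians of 3349 UMIs in mature neurons and 7038 in cycling progenitors of the sibling library), and the sibling ratio was 6.05 with cells thinned to 1000 UMIs before gating and 14.4 without the upper limits on genes and UMIs per barcode.

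stmn2a and stmn2b are the copies of stathmin 2, the growth cone stathmin first described as SCG10 in rat. stmn2a measured 155 CPM in newborn, 455 CPM in intermediate and 1052 CPM in mature neurons of the sibling library, and 183, 360 and 802 CPM in the rb1 library. Mature neurons were above newborn neurons by 6.80-fold [5.83, 7.97] and 4.39-fold [3.86, 5.00] respectively, and the sibling value was 10.9 without the upper limits on genes and UMIs per barcode and 4.79 with cells thinned to 1000 UMIs before gating. stmn2a was as high in cranial sensory and motor neuron-like cells (1118 CPM in the sibling library, interval overlapping that of mature neurons). stmn2b was lower in mature neurons, 184 and 160 CPM in the sibling and rb1 libraries, and had its highest level in retinal ganglion-like cells, with 337 and 327 CPM. In the sibling library that interval overlapped the one of cranial sensory and motor neuron-like cells (258 CPM).

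stmn3, stmn4 and stmn4l make up the rest of the membrane-anchored group. stmn4 was at 273 CPM and stmn4l at 294 CPM in sibling mature neurons, and at 201 and 245 CPM in rb1 mature neurons. Both were highest in cranial sensory and motor neuron-like cells, with 361 CPM of stmn4 and 622 CPM of stmn4l among sibling cells and 269 and 518 CPM among rb1 cells. For stmn4l the sibling level stood above the other classes beyond counting error, and for stmn4 it overlapped that of retinal ganglion-like cells (359 CPM). In the rb1 library both overlapped those of retinal ganglion-like cells (410 CPM of stmn4l and 240 CPM of stmn4). stmn3 was sparse, with 147 UMIs in all sibling and 71 in all rb1 cells. It gave 82 UMIs (16.5 CPM) in sibling and 44 UMIs (11.4 CPM) in rb1 mature neurons, 1 UMI in sibling newborn neurons and 0 UMIs in rb1 newborn neurons, where a count of 0 allows up to 2.15 CPM. Its sibling level in cranial sensory and motor neuron-like cells, 50.8 CPM from 36 UMIs, lay above that in mature neurons. The rb1 library did not repeat this, with 13.5 CPM from 11 UMIs in those cells and an interval overlapping that of mature neurons.

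gap43, the growth cone substrate of protein kinase C, was at 255 CPM in newborn, 606 CPM in intermediate and 1132 CPM in mature neurons of the sibling library, and at 301, 488 and 1017 CPM in the rb1 library. Mature neurons were above newborn neurons by 4.45-fold [3.94, 5.03] and 3.38-fold [3.06, 3.75], and the sibling value was 8.80 without the upper limits and 2.98 with cells thinned before gating. In the rb1 library its highest level was in cranial sensory and motor neuron-like cells (1134 CPM), with an interval that overlapped that of retinal ganglion-like cells (1101 CPM) but not that of mature neurons. The sibling order differed. There mature neurons were highest, with an interval overlapping that of cranial sensory and motor neuron-like cells (1034 CPM), and retinal ganglion-like cells (811 CPM) were lower.

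RNA free in the suspension gives UMIs in cells that do not express a gene, so the low ends of these ranges were set beside classes that should lack neuronal stathmins. In sibling connective tissue stmn2a was at 13.7 CPM, stmn2b at 3.31 CPM, stmn3 at 0.882 CPM, stmn4 at 10.6 CPM, stmn4l at 3.31 CPM and gap43 at 10.8 CPM. Sibling epidermis and muscle were higher for stmn2a (16.8 and 16.1 CPM), stmn4l (6.45 and 4.02 CPM) and gap43 (23.2 and 28.1 CPM). They were lower for stmn3 (0 and 0 CPM) and stmn4 (3.87 and 4.02 CPM), and stmn2b was at 0 and 8.03 CPM. Intervals of the higher values overlapped those of connective tissue. In sibling cycling progenitors the same genes were at 4.87, 2.25, 0.375, 0.75, 2.25 and 6.0 CPM, each below its connective tissue level. In the rb1 library cycling progenitors held 7.72, 2.16, 0.309, 0.618, 3.09 and 13.3 CPM and connective tissue 6.02, 0.645, 0, 3.01, 3.22 and 7.95 CPM, so that 4 of the 6 were higher in cycling progenitors, with overlapping intervals. Levels of this size are not read as expression. stmn1b in cycling progenitors was above background: it had a UMI in 60.5% of them against 15.8% of connective tissue cells, at median depths of 7038 and 5162 UMIs. Its sibling level was 331 CPM in cycling progenitors and 197 CPM in muscle, with intervals that did not overlap. In S phase cells stmn1b was below muscle in the sibling library (120 CPM) and above it in the rb1 library (156 against 28.0 CPM). For stmn1a, red blood cells held 0 UMIs in the sibling library, which allows up to 9.32 CPM, and 36.9 CPM (14 UMIs) in the rb1 library.

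Counted over the 8 genes, 7 were at least 2-fold higher and 1 (stmn1a) at least 2-fold lower in mature neurons than in cycling progenitors, in the sibling library and again in the rb1 library. Among the 7 genes with at least 100 UMIs over the cells compared, 6 were higher and 1 lower. Of all genes with that many UMIs, 42.9% were higher and 13.6% lower among sibling cells, and 34.3% and 13.3% among rb1 cells. For mature against newborn neurons, 6 genes were at least 2-fold higher, 1 was lower and 1 (stmn1b, 1.54-fold and 1.83-fold) lay between the limits in each library. The count of higher genes was 7 without the upper limits in each library (stmn1b then 2.15-fold in the sibling library) and 5 with thinned cells or per-cell means (stmn2b then 1.87-fold and 1.95-fold in the sibling library). With at least 100 UMIs these were 5, 1 and 1, where 31.7% of all sibling genes were higher and 3.89% lower, and 22.8% and 3.51% of rb1 genes. The median ratio of mature over cycling cells was 130-fold over the 7 genes in the sibling library and 1.62-fold over all genes, with background levels of most of them in the cycling cells.

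Neurons were also put in 8 bins by the number of mature neuron genes, from 0 (108 sibling and 112 rb1 cells) to 10 to 15 (304 and 131 cells). From the lowest to the highest bin stmn1a went from 427 to 15.3 CPM in the sibling and from 761 to 58.8 CPM in the rb1 library. Over the same bins stmn2a went from 70.3 to 1606 CPM and gap43 from 120 to 1570 CPM in the sibling library, and from 75.5 to 1349 CPM and from 143 to 1448 CPM in the rb1 library. stmn1b was at 1238 CPM in the first and 3072 CPM in the last sibling bin, and at 1042 and 3262 CPM in the rb1 bins. The bin with the most stmn1b depended on the thinning: in the sibling library it was 3 mature genes (3706 CPM) at 1000 UMIs and 6 to 7 (3638 CPM) at 2000 UMIs per cell, and in the rb1 library 8 to 9 (3428 CPM) and 10 to 16 (3405 CPM). stmn4l was at 25.9 and 343 CPM in the first and last sibling bins and at 58.1 and 238 CPM in the rb1 bins, and its highest bin also changed with the thinning in both libraries.

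**Figure D2:**
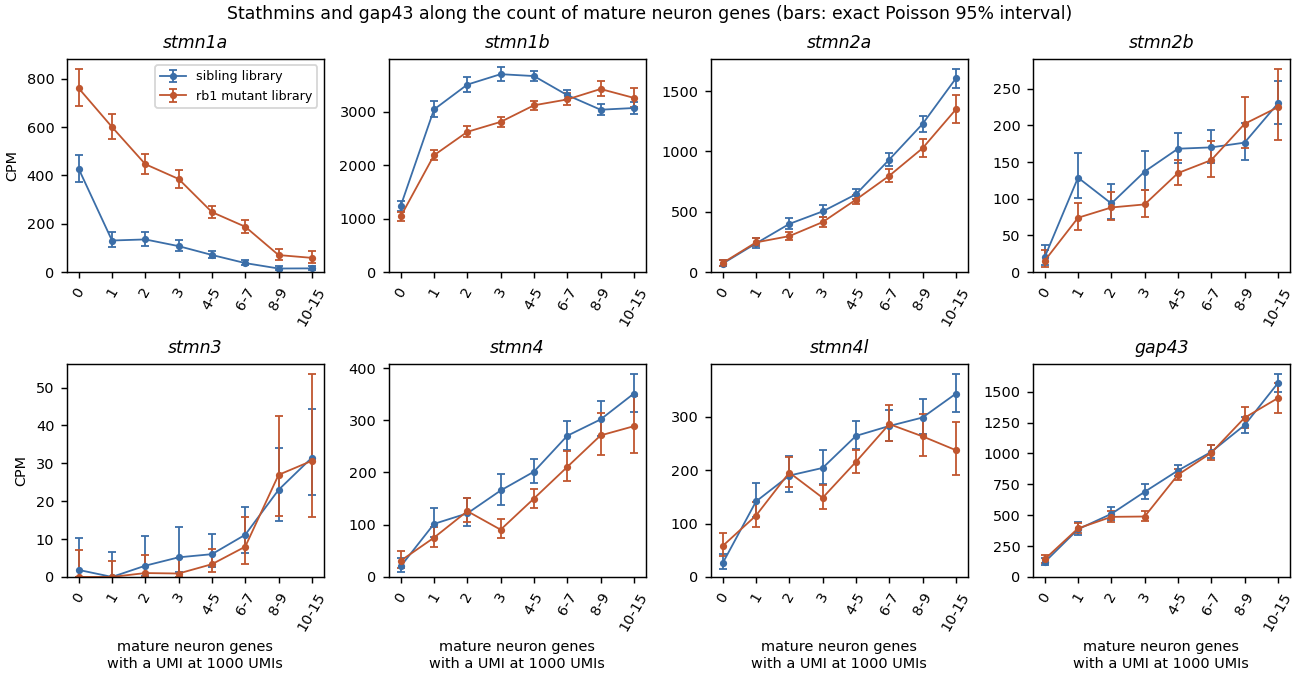
Level (CPM, linear axis from 0) of each gene in neurons binned by the number of mature neuron genes with a UMI at 1000 UMIs per cell, in the sibling (blue) and rb1 mutant (orange) library; bars are exact Poisson 95% intervals. stmn1a declines along the bins with the rb1 library above the sibling library in each of the 8 bins, stmn1b is lowest in the first bin and then, in the sibling library, goes up to 3706 CPM and back to 3041 CPM, and the other 6 genes end well above their first bin.

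Mature neurons also held more of the 8 genes per cell. At 1000 UMIs per cell, 4 or more of the 8 genes had a UMI in 0 of 333 sibling and 0 of 537 rb1 cycling progenitors, in 4.72% [2.46, 8.11] and 6.10% [3.76, 9.26] of newborn neurons and in 21.8% [19.7, 23.9] and 18.0% [15.9, 20.3] of mature neurons. No cell had all 8. Among mature neurons with a stmn1a UMI, stmn2a was found in 39.2% [25.8, 53.9] of 51 sibling and 34.9% [27.3, 43.0] of 152 rb1 cells. Among those without one it was found in 55.9% [53.3, 58.5] and 48.3% [45.2, 51.4], and the intervals of the 2 groups overlapped in the sibling but not in the rb1 library. gap43 did not show this in rb1 cells (48.0% with and 46.9% without stmn1a), and stmn1b was found in 92.2% and 89.1% of sibling and 94.7% and 90.1% of rb1 cells, with overlapping intervals.

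Mature neurons were split by transmitter genes into GABAergic-like cells (at least 2 genes of GABA synthesis and transport and no vesicular glutamate transporter; 325 sibling and 197 rb1 cells) and glutamatergic-like cells (437 and 288 cells). stmn4 was at 199 CPM in GABAergic-like and 390 CPM in glutamatergic-like cells of the sibling library, a ratio of 0.509 [0.436, 0.594], and at 156 and 264 CPM in the rb1 library, a ratio of 0.591 [0.467, 0.744]. gap43 was at 987 and 1470 CPM in the sibling library, a ratio of 0.671 [0.625, 0.721], and at 843 and 1346 CPM in the rb1 library, a ratio of 0.627 [0.567, 0.692]. stmn2a also stood lower in GABAergic-like than in glutamatergic-like cells, with ratios of 0.715 [0.664, 0.768] and 0.769 [0.690, 0.855]. So did stmn1b (0.902 [0.864, 0.942] and 0.839 [0.794, 0.886]) and stmn2b (0.766 [0.637, 0.919] and 0.705 [0.547, 0.904]). For stmn1a, stmn3 and stmn4l the interval included 1 in at least 1 library. The median number of mature genes was 8 in both sibling groups and 7 in both rb1 groups. Mature neurons classed as neither (457 sibling and 501 rb1 cells) had medians of 6 and 5. Their stmn2a was below that of GABAergic-like cells (814 against 978 CPM in sibling, 682 against 774 CPM in rb1 cells). Their gap43 was below that of GABAergic-like cells in the sibling library (900 CPM) and above it in the rb1 library (936 CPM). Their stmn1b, stmn2b and stmn4 were above it in each library. The share of all genes lower in GABAergic-like cells was not counted.

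Over all retained cells, stmn1a was the only one of the 8 genes that was higher in the rb1 library, at 435 CPM in the sibling and 619 CPM in the rb1 library, a ratio of 1.42 [1.39, 1.45]. The other 7 were lower, from 0.922 for stmn1b to 0.437 for stmn3, and their intervals lay below 1, but stmn1b was at 1.08 without the upper limits and over all deposited barcodes. In all, 0 genes were at least 1.5-fold higher and 3 at least 1.5-fold lower (stmn2a at 0.665, stmn3 at 0.437 and stmn4 at 0.624), where 4.13% of all genes were higher and 13.5% lower. The median gene had a ratio of 0.921 (-0.12 on the log2 scale), and relative to it stmn1a was at 1.54 and stmn1b at 1.00. In bulk sums of this kind, fewer cells of a class and less RNA per cell cannot be told apart. mki67 had a ratio of 1.59 and snap25a, a synaptic vesicle fusion gene, of 0.651. With each class held at its sibling share of UMIs the ratio of stmn1a was 1.20 and that of stmn2a 0.778, and only stmn3 (0.553) was still past 1.5-fold.

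Within classes stmn1a was lower in rb1 cycling progenitors but higher in rb1 neurogenic precursors, radial glia and neurons. In rb1 cycling progenitors it was at 1161 CPM against 1676 CPM in the sibling library, a ratio of 0.693 [0.663, 0.724]. The median number of mature genes in this class was 0 in the sibling and 1 in the rb1 library. Median depths were 7038 and 5047 UMIs, and the part of these differences was not tested. In S phase cells stmn1a was at 1264 against 1673 CPM, a ratio of 0.756 [0.712, 0.802]. Without the upper limits on genes and UMIs per barcode that ratio was 0.996. In elavl3-positive mitotic cells it was 1343 against 1399 CPM, and the interval of the ratio of 0.960 [0.902, 1.02] included 1; with cells thinned to 1000 UMIs before gating it was 1.41. From neurogenic precursors onward the rb1 library was higher: 1294 against 556 CPM in neurogenic precursors, 660 against 278 CPM in newborn, 414 against 120 CPM in intermediate and 182 against 37.7 CPM in mature neurons. The ratio was 2.33 [2.11, 2.58] in neurogenic precursors, 2.38 [2.09, 2.72] in newborn, 3.44 [2.92, 4.08] in intermediate and 4.83 [4.1, 5.7] in mature neurons. With cells thinned to 1000 UMIs before gating, the value in neurogenic precursors was 1.34. Radial glia had a ratio of 2.11 [1.47, 3.09], from 40 sibling and 133 rb1 UMIs. In rb1 mature neurons 12.7% [10.9, 14.7] of cells had a stmn1a UMI at 1000 UMIs per cell, against 3.40% [2.55, 4.45] of sibling mature neurons. Over the 8 bins of mature genes the ratio lay between 1.78 and 5.05 without a steady rise, and its interval lay above 1 in 8 of 8 bins. It was 1.78 with 0 mature genes, 4.60 with 1, 5.05 with 6 to 7 and 3.85 with 10 to 15.

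The same direction was found in retinal and peripheral neuron classes. stmn1a was at 375 CPM in rb1 and 33.1 CPM in sibling bipolar-like cells, a ratio of 11.3 [8.15, 16.2], or 7.37 without doublet removal and 7.62 without the upper limits. It was 4.38-fold [3.29, 5.90] higher in amacrine-like and 3.45-fold [2.68, 4.49] higher in cranial sensory and motor neuron-like cells, and 1.51-fold [1.31, 1.73] higher in photoreceptor-like cells (2.94-fold with cells thinned before gating). In connective tissue the ratio was 1.20 [1.13, 1.28], and 0.742 with cells thinned before gating. mki67 was also higher in rb1 mature neurons (4.22 CPM in the sibling and 10.4 CPM in the rb1 library) and bipolar-like cells (4.25 and 27.9 CPM). It is not given for the other classes here. mki67 is itself a mitotic marker, and cells with at least 3 mitotic genes had been set apart from these 2 classes, which limits its level there. The median number of mature genes was 7 and 6 in mature neurons and 3 and 2 in bipolar-like cells. The part of these differences in the stmn1a values was not tested. Of 14 classes with at least 50 cells in each library, stmn1a was at least 1.5-fold higher in 10 and at least 1.5-fold lower in 0. Among the 13 with at least 100 UMIs it was higher in 9. For all genes and classes with that many UMIs, 6.81% of pairs were higher and 9.33% lower. Its ratios in cycling progenitors and S phase cells lay below 1 but within 1.5-fold.

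**Figure D3:**
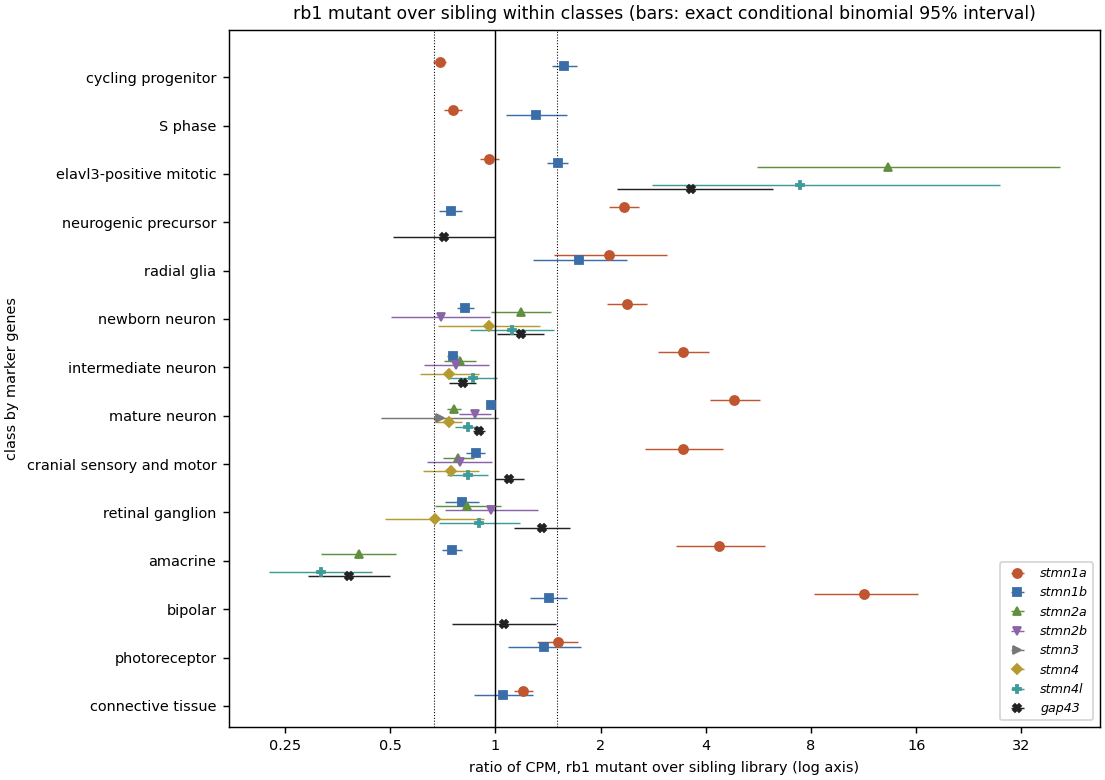
Ratio of CPM in the rb1 mutant over the sibling library (log axis) for each gene with at least 100 UMIs in the class, by class; bars are exact conditional binomial 95% intervals, the solid line marks 1 and the dotted lines 1.5-fold either way. stmn1a (orange circles) lies left of 1 in cycling progenitors and S phase cells and right of 1 in every other class shown for it except elavl3-positive mitotic cells, and the other genes lie mostly between the dotted lines.

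The neurons of the rb1 library more often carried UMIs of S phase genes, a list of 8 replication genes such as pcna and the mcm genes. At 1000 UMIs per cell at least 1 of them had a UMI in 7.87% of sibling and 39.0% of rb1 newborn neurons, in 3.82% and 22.8% of intermediate neurons and in 4.54% and 14.8% of mature neurons. In cells with none, stmn1a was at 127 CPM in sibling and 285 CPM in rb1 newborn neurons, at 119 and 221 CPM in intermediate and at 38.6 and 115 CPM in mature neurons. The ratios in these cells were 2.24 [1.79, 2.82], 1.86 [1.54, 2.26] and 2.98 [2.49, 3.58], against 2.38, 3.44 and 4.83 over all cells of the same stages, and all 3 intervals lay above 1. In rb1 cells with at least 1 S phase gene, stmn1a was at 1152 CPM in newborn, 962 CPM in intermediate and 507 CPM in mature neurons. The sibling library had 20, 16 and 68 such cells, with 1437, 150 and 19.2 CPM of stmn1a from 180, 9 and 4 UMIs. In newborn neurons with an S phase gene the rb1 library was lower, with a ratio of 0.802 [0.68, 0.95]. At this depth a cell with no S phase UMI may still hold such transcripts.

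**Figure D4:**
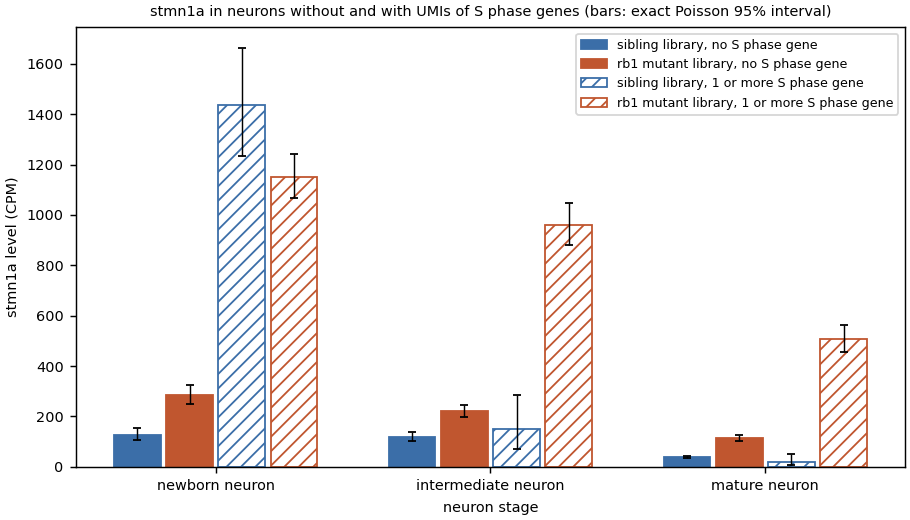
Level of stmn1a (CPM, linear axis from 0) in newborn, intermediate and mature neurons with no UMI of 8 S phase genes (filled bars) and with 1 or more (hatched bars) at 1000 UMIs per cell, in the sibling (blue) and rb1 mutant (orange) library; error bars are exact Poisson 95% intervals. The filled rb1 bars (285, 221 and 115 CPM) stand above the filled sibling bars (127, 119 and 38.6 CPM), and the hatched rb1 bars are higher still; among hatched newborn bars the sibling one (1437 CPM) is above the rb1 one (1152 CPM).

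For the other genes most differences within classes were small. Of 112 pairs of gene and class, stmn1a included, 30 were at least 1.5-fold higher and 25 lower in the rb1 library. Without stmn1a these were 20 and 25 of 98 pairs. Many of them rested on few UMIs: of the 61 pairs with at least 100 UMIs, stmn1a included, 15 were higher and 3 lower. For all genes and classes with that many UMIs, 6.81% of pairs were higher and 9.33% lower. stmn1a gave 9 of the 15 higher pairs, and the other 7 genes gave 6 higher, 3 lower and 39 between the limits. In mature neurons only stmn1a of the 8 genes was past 1.5-fold, where 2.69% of all genes were higher and 11.1% lower. stmn2a had a ratio of 0.762 [0.729, 0.797] there, stmn4 of 0.735 [0.672, 0.803], stmn4l of 0.833 [0.767, 0.905], stmn2b of 0.874 [0.788, 0.969], gap43 of 0.899 [0.863, 0.936] and stmn1b of 0.972 [0.95, 0.995]. The median gene was at 0.914, and snap25a, itself among the 17 mature genes, was at 960 CPM in the sibling and 776 CPM in the rb1 library.

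In newborn neurons 1 gene was higher (stmn1a) and 1 lower (stmn3, with 1 sibling and 0 rb1 UMIs), and of the 7 genes with at least 100 UMIs 1 was higher and 0 lower, where 6.26% of all genes were higher and 7.19% lower. In cycling progenitors 3 genes were higher (stmn1b, and stmn2a and gap43 at a few UMIs) and 0 lower. Of the 2 with at least 100 UMIs there, stmn1b was higher, at 331 and 521 CPM with a ratio of 1.57 [1.45, 1.71], and stmn1a was lower but within 1.5-fold, where 10.3% of all genes were higher and 8.94% lower. stmn1b was thus higher in rb1 cycling progenitors, while it was lower in rb1 newborn (0.820 [0.774, 0.868], but 1.00 without the upper limits) and intermediate neurons (0.754 [0.726, 0.783]). The median number of mature genes in cycling progenitors was 0 in the sibling and 1 in the rb1 library, and its part was not tested.

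Large ratios of neuronal stathmins with few sibling UMIs were found in elavl3-positive mitotic cells, a class of 110 sibling and 461 rb1 cells. There 6 genes (all but stmn1a and stmn3) were higher and 0 lower in the rb1 library, or 4 and 0 of the 5 with at least 100 UMIs, where 20.5% of all genes were higher and 6.51% lower. stmn2a was at 5.33 CPM (5 UMIs) in the sibling and 70.7 CPM (214 UMIs) in the rb1 library, a ratio of 13.3 [5.60, 41.3]. This ratio was 2.55 without doublet removal and 1.56 without the upper limits on genes and UMIs, so its size depended on which barcodes were kept. stmn4l was at 4.27 CPM (4 UMIs) and 31.7 CPM (96 UMIs), gap43 at 19.2 CPM (18 UMIs) and 69.4 CPM (210 UMIs), and stmn1b at 1018 and 1536 CPM. Their ratios were 7.44, 3.62 and 1.51, and without the upper limits 2.20, 1.31 and 1.79. With cells thinned before gating, gap43 was at 1.55 and stmn1b at 1.02. The sibling levels of stmn2a and stmn4l were no higher than in connective tissue beyond counting error. For gap43 the sibling interval also overlapped that of connective tissue (10.8 CPM). snap25a was at 8.53 and 65.4 CPM in the same cells, and its part in the result was not tested. In rb1 elavl3-positive mitotic cells stmn2a had a UMI in 6.62% [4.51, 9.32] at 1000 UMIs per cell, against 17.4% [13.4, 21.9] of rb1 newborn neurons.

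In amacrine-like cells stmn2a, stmn4l and gap43 went the other way, whereas stmn1a was higher in the rb1 library there (ratio 4.38). stmn2a was at 221 CPM in the sibling and 89.8 CPM in the rb1 library (ratio 0.407 [0.317, 0.521]), stmn4l at 144 and 45.8 CPM (0.317 [0.224, 0.442]) and gap43 at 197 and 75.1 CPM (0.382 [0.291, 0.499]). Without the upper limits the ratios were 0.394, 0.312 and 0.356, and with cells thinned before gating 0.306, 0.204 and 0.188. These 3 pairs are the 3 lower pairs among the 61 with at least 100 UMIs, where 9.33% of all pairs of gene and class were lower. The median gene in amacrine-like cells was at 0.901. snap25a was at 298 and 103.5 CPM in the same cells, and the median number of mature genes was 5 and 3. Their part in the lower stathmin and gap43 levels was not tested. In retinal ganglion-like cells, which bear the axons of the optic nerve, gap43 was higher in the rb1 library (811 and 1101 CPM, ratio 1.36 [1.13, 1.63]) and stmn4 lower (359 and 240 CPM, ratio 0.670 [0.484, 0.925]), both within 1.5-fold.

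Other genes of microtubules and of the growth cone were counted for context, with 42 of 44 listed microtubule genes and 39 of 42 listed growth cone genes in the tables. Of 35 genes of the microtubule list with at least 100 UMIs, 20 were at least 2-fold higher and 8 lower in sibling mature neurons than in cycling progenitors, and of 32 such genes of the growth cone list 19 were higher and 0 lower, where 42.9% of all genes were higher and 13.6% lower; tpx2 of the microtubule list was also a mitotic marker. tuba1c, an alpha-tubulin gene, was at 780 CPM in cycling progenitors and 3258 CPM in mature neurons, whereas the beta-tubulin genes tubb2b (2634 and 1272 CPM) and tubb4b (3106 and 1517 CPM) were lower. The MARCKS-like genes marcksl1a (723 and 1422 CPM) and marcksl1b (847 and 3706 CPM) were higher in mature neurons, and cfl1, which encodes the actin-severing cofilin, was at 1453 and 2036 CPM. Between the libraries, in mature neurons, 1 microtubule gene was at least 1.5-fold higher and 3 lower of 32, and 0 growth cone genes were higher and 2 lower of 34, where 2.69% of all genes were higher and 11.1% lower. In elavl3-positive mitotic cells 8 microtubule genes were higher and 1 lower of 23, and 15 growth cone genes higher and 0 lower of 25, where 20.5% of all genes were higher and 6.51% lower.

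The genes with the most similar pattern were sought by Pearson's r of log2(CPM + 10) across the 19 sibling classes, which share 1 library and differ in depth, among 5020 genes that were not markers. Nearest to stmn1a were ran, a GTPase of nuclear transport (r = 0.93), and nasp, a histone chaperone (r = 0.92). The tubulin genes tubb5 (r = 0.97) and tuba1c (r = 0.96) were nearest to stmn1b. stmn4l (r = 0.98) and tuba2 (r = 0.98) were nearest to stmn2a, and ppp3ca, a catalytic subunit of calcineurin (r = 0.97), and stmn2a (r = 0.97) to gap43. The order among such genes was not stable: of the 24 places, the 3 nearest of each of the 8 genes, 6 kept the same gene with a pseudocount of 1 and 7 did so in the rb1 library.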

How the data were processed

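Whole-brain cells of 1 sibling and 1 rb1 mutant library were analysed from the deposited counts, whole UMI counts per gene and barcode. The authors aligned the reads with Cell Ranger (5.1.0 in the submitters' processing notes, another version in the file header), with GRCz11 named as the build, and used Seurat 3.1.1 downstream. They counted only uniquely mapped reads, so reads shared by near-identical copies were lost. The study's limits were applied (at least 200 and at most 3000 genes per barcode, fewer than 20000 UMIs, a mitochondrial share below 15%), and the 7.5% with the highest Scrublet score (scanpy 1.11.5) were removed in place of its doublet caller. A dense copy of the same counts was not used.

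Cells were gated in order by distinct marker genes with a UMI. Non-neural classes came first (3 to 5 genes), then at least 3 of 12 mitotic genes. Next came the retinal and cranial classes (at least 2 of 4 bipolar genes, or 3 genes for the others, some with a required gene). Cells with S phase genes could thus stay in these classes. After them came 4 of 8 S phase genes with no elavl3, 4 of 9 radial glia or 3 of 10 neurogenic genes. Neurons were gated last, by at least 2 of 4 neuron genes. The numbers of markers were set on the marker counts. Barcode depth was 500 to 19857 UMIs in sibling and 500 to 19919 in rb1 cells. Sums of UMIs over the cells of each class were given as CPM with exact Poisson intervals, shares with Clopper-Pearson intervals and ratios with conditional binomial intervals (SciPy 1.17.1). No test was run. A gene counted as past a limit at 2-fold between stages and 1.5-fold between libraries, and shares over all genes used genes with at least 100 UMIs over the cells compared.

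The genes named were all 8 members, the 3 genes of each list with the most sibling UMIs, the nearest genes by r, and rb1, elavl3, mki67 and snap25a as checks; pcna, tpx2 and the mcm genes are named only as markers. The members, the lists and the gates were chosen with earlier results of these data known. The splits by transmitter genes, by S phase genes and by members per cell, the ratios in each bin and the class shares held fixed were added after seeing the data. Alternatives changed doublets, limits, depth, gates, weights and scaling.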

Additional observations from a re-analysis of the deposited data

Results flagged for a closer look

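For 5 of the 8 genes the rb1 library was above the sibling library in one class and below it in another, with both intervals clear of 1 and at least 100 UMIs in each class. The share of all genes that meet this rule was not counted, so the 5 of 8 are not read as a trait of these genes. For each gene the lowest and the highest class are given, and the difference between the classes was not tested. stmn1a had a ratio of 0.693 in cycling progenitors and 11.3 in bipolar-like cells. stmn1b had a ratio of 0.744 in neurogenic precursors and 1.74 in radial glia. In amacrine-like and in elavl3-positive mitotic cells respectively, the ratio was 0.407 and 13.3 for stmn2a, 0.317 and 7.44 for stmn4l, and 0.382 and 3.62 for gap43. Without the upper limits on genes and UMIs the values in elavl3-positive mitotic cells were 1.56, 2.20 and 1.31, and without doublet removal 2.55, 3.93 and 2.71. With cells thinned to 1000 UMIs before gating, those in amacrine-like cells were 0.306, 0.204 and 0.188.

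Barcodes of 20000 UMIs or more entered no main comparison. They entered only the alternatives without the upper limits and over all deposited barcodes. The 272 sibling barcodes of this depth held 683 CPM of stmn1a and the 181 rb1 barcodes 679 CPM, above the 435 and 619 CPM of all retained cells. stmn2a was at 6.01 and 10.4 CPM in these barcodes.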

How the results depend on the processing

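No paired analysis was possible because each genotype had 1 library, and for the same reason no replicate could be left out. Of 111 alternative counts over the 8 genes, 98 stayed within 1.5 times the reported count. Over all retained cells, the count of genes at least 1.5-fold lower in the rb1 library went from 3 to 1 without upper limits on genes and UMIs, with means of per-cell CPM, with scaling by the median of gene ratios, over all deposited barcodes and at the class shares of the sibling library, and the count of higher genes went from 0 to 1 with cells thinned to 1000 UMIs, with means of per-cell CPM and with the median of gene ratios. Within classes, a minimum of 100 UMIs took the counts from 30 to 15 higher and from 25 to 3 lower. In the rb1 library 5 of the 8 genes had the same highest neural class as in the sibling library. For likeness, 6 of 24 nearest genes were shared with a pseudocount of 1 and 7 in the rb1 library.

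Of 399 alternative values of single genes, 122 moved beyond counting error and 0 turned the direction of a value past its fold limit. Among ratios within the limit, stmn1b crossed 1 over all retained cells (to 1.08 without the upper limits and over all deposited barcodes, 1.00 by median scaling) and in newborn neurons (1.00 without the upper limits), and stmn1a, when thinned, in connective tissue (0.742) and elavl3-positive mitotic cells (1.41). The ratio of stmn1a between libraries ranged from 3.79 to 6.25 in mature neurons, from 2.24 to 2.94 in newborn neurons, from 0.663 to 0.732 in cycling progenitors and from 1.20 to 1.90 over all retained cells. The ratio of stmn2a ranged from 1.56 to 16.3 in elavl3-positive mitotic cells. The cause of these shifts was not tested. The classes and genes of the within-class ratios, the minimum of 100 UMIs and the fixed class shares were chosen after seeing the data. Depth limits stmn3 most. For stmn2a, stmn2b, stmn3, stmn4, stmn4l and gap43, levels of up to about those in connective tissue, epidermis and muscle are not read as expression.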
